A study of Mus musculus with 9 samples.

Results

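Sox9, Sox4 and Sox11 are the 3 genes described here, chosen by name out of 19858 genes listed in the deposited single-nucleus tables, of which 16939 appear in both. All 3 members were listed in both tables. Their UMI counts were followed by tubule type, by the injury state of each nucleus, by library and by day, together with how often they were detected in the same nucleus. SOX9 is an HMG-box transcription factor of the SoxE group that marks progenitors in several organs, and in the kidney tubule it is known as a factor of cells that survive injury and rebuild the epithelium. SOX4 and SOX11 form most of the SoxC group. They are best known from developing neurons and mesenchyme, where they overlap in function, and both take part in forming the nephron.

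Nuclei came from frozen kidneys of male mice aged 11 to 19 weeks and were sorted for GFP before sequencing. The ischemia-reperfusion injury (IRI) mice were Krt20T2A-CE; INTACTnuGFP/+ animals treated with tamoxifen at 0.05 mg/g, whose renal pedicles were both clamped for 18 min. Kidneys of 3 of these mice were taken on day 28 and of 2 on day 7, with 1 library per mouse. The controls were 4 Six2TGC; Rosa26rtTA; pTRE-H2BeGFP mice on doxycycline food at 625 mg/kg, 3 of them sham-operated and 1 without surgery. In the IRI line, GFP depends on a recombinase expressed from the keratin gene Krt20, which injured tubule cells switch on, so the sort favours cells with a history of that gene and their descendants. In the control line, GFP marks the nephron as a whole. Injury, reporter line and sort therefore differ together in every comparison with control and cannot be told apart, whereas day 28 and day 7 share line and sort. Creatinine at 48 h was 0.488, 0.208 and 0.228 mg/dL in day 28 mice 1, 2 and 3. It was 0.255 and 0.133 mg/dL in day 7 mice 1 and 2, and its part in the comparison of days was not tested.

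The 27738 nuclei carried 66996218 UMIs, and the median nucleus had between 668 UMIs (sham control 2) and 4174 UMIs (day 28 mouse 3). The cell barcodes of day 28 mouse 1 and of all 4 controls began like those of the v2 reagent set, and those of the other 4 IRI libraries like those of the v3 set. Day 28 mouse 1 also stood apart in profile: its proximal tubule sum correlated with those of the other day 28 mice at 0.888 and 0.898, against 0.97 between those 2. Malat1, a long RNA kept in the nucleus, made up 6.74% to 17.6% of UMIs in the IRI and 19.8% to 24.0% in the control libraries. Among 27606 distinct barcodes, 132 occurred in more than 1 library. No cell type annotation was used, so classes were rebuilt by clustering without the members and named from marker genes; each name is written with "-like". The proximal tubule-like (PT-like) class held 11861 IRI nuclei and 10826 control nuclei, and the thick ascending limb-like (TAL-like) class 797 and 864. The PT-like class joins clusters led by proximal tubule markers and clusters led by a separate list of injured proximal tubule markers. Most of its IRI nuclei, and few of its control nuclei, lay in clusters led by the injured list. Its largest cluster, with 2034 IRI nuclei of 2036, scored -1.755 for proximal tubule and 2.564 for injured markers (log2).

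Sox4 and Sox11 each have 1 exon, and Sox9 has 3. In the mm10 assembly, Sox9 (ENSMUSG00000000567.5) lies on the plus strand at chr11:112782224-112787760, Sox4 (ENSMUSG00000076431.4) on the minus strand at chr13:28948919-28953713, and Sox11 (ENSMUSG00000063632.6) on the minus strand at chr12:27334264-27342574, all protein coding. Sox4 overlaps a long non-coding RNA gene on the plus strand, Gm26735, at chr13:28943048-28951671. Strand use in the counting is not given in the sources used here, so reads of Sox4 and of Gm26735 cannot be told apart with certainty. Their patterns in PT-like sums differed: Gm26735 had 13.8, 19.1 and 12.3 CPM in the day 28 mice, 1.33 and 1.12 CPM in the day 7 mice, and 4.06, 2.44, 7.02 and 5.27 CPM in the controls, where CPM is the usual scaling of a gene's UMIs by the UMIs of the whole sum. By edgeR's quasi-likelihood test with Benjamini-Hochberg adjustment, Gm26735 was higher than control on day 28 (log2 change 1.55, adjusted p = 0.00322) and lower on day 7 (-2.02, adjusted p = 0.00317).

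The stretches before the RefSeq start sites of Sox4 and Sox11 are printed so that the 2 SoxC members can be compared letter by letter. Sox9 is not in the promoter table. The RefSeq start is at 28953699 for Sox4 and 27342718 for Sox11, whereas the gene positions given above start at 28953713 and 27342574. The Sox4 window was cut to 236 bases to end before that gene position, and the Sox11 window has 250 bases. They are RefSeq sequences on the GRCm38.p6 assembly, written 5′ to 3′ along each gene's own strand, minus in both, and capitals mark matches to the motifs named next.
Sox4, chr13:28953714-28953949: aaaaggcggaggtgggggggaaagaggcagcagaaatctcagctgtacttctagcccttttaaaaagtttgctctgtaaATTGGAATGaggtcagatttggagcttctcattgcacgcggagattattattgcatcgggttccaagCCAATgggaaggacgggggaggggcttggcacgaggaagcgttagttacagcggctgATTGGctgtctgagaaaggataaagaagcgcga
Sox11, chr12:27342719-27342968: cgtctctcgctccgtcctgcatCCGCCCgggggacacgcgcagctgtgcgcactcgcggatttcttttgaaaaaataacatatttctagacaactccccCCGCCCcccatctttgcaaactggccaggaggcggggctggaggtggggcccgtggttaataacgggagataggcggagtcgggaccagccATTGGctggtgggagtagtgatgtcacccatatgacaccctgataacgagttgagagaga

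A set of 7 motifs was searched on both strands of these windows. Positions are counted from the RefSeq start of each gene. The Sox4 window held 3 matches to the CCAAT box (CCAAT), at -171 to -167, -104 to -100 and -47 to -43. It also held 1 match to a TEAD site (GGAATG) at -168 to -163, which overlaps the first CCAAT match. The Sox11 window held 1 CCAAT match at -60 to -56 and 2 matches to the GC box (GGGCGG), at -228 to -223 and -151 to -146. Matches to an AP-1 site (TGANTCA), a SOX core (ACAAAG), a STAT site (TTCNNNGAA) and a TATA box (TATAAA) were not in either window. Of 32851 promoter windows of 250 bases, 33.8% held CCAAT, 12.6% GGAATG, 32.7% GGGCGG, 6.75% TGANTCA, 16.5% ACAAAG, 7.02% TTCNNNGAA and 12.4% TATAAA. A match describes letters in a window, not a bound site.

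The first question was whether injured proximal tubule, the segment that reabsorbs most of the filtrate and is most exposed to ischemia, carried more of the 3 transcripts than control proximal tubule. All 3 were far higher in PT-like nuclei of the IRI mice, at both days and in each mouse, and close to absent in the controls. Sox9 had 86.0, 56.5 and 67.8 CPM in day 28 mice 1, 2 and 3, and 47.2 and 49.0 CPM in day 7 mice 1 and 2, against 0, 0.348, 0 and 0 CPM in the non-surgery control and sham controls 1, 2 and 3. The lowest IRI library thus stood far above the highest control, and sham control 1 was the one control with any Sox9 UMI in this class. Pooled over mice, the day 28 level was 408 times the control level (95% counting interval 139 to 1984) and the day 7 level 310 times (106 to 1508); the controls together held 3 Sox9 UMIs in 10826 nuclei. Intervals of this kind cover counting error only.

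Sox4 had 133, 90.7 and 49.4 CPM in day 28 mice 1, 2 and 3, and 78.4 and 77.3 CPM in day 7 mice 1 and 2, against 1.62, 2.44, 2.55 and 1.60 CPM in the non-surgery control and sham controls 1, 2 and 3. Here too no control reached an IRI library, although each control carried some Sox4. The pooled ratio to control was 40.5 on day 28 (29.6 to 57.0) and 38.0 on day 7 (27.7 to 53.3). Sox11 had 21.5, 19.2 and 16.3 CPM in day 28 mice 1, 2 and 3, and 39.6 and 35.8 CPM in day 7 mice 1 and 2. The controls had 0.203, 0, 0.638 and 0 CPM of Sox11 in the same order, from 2 UMIs in all. Its pooled ratio to control was 181 on day 28 (49.8 to 1505) and 372 on day 7 (103 to 3075).

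**Figure D1:**
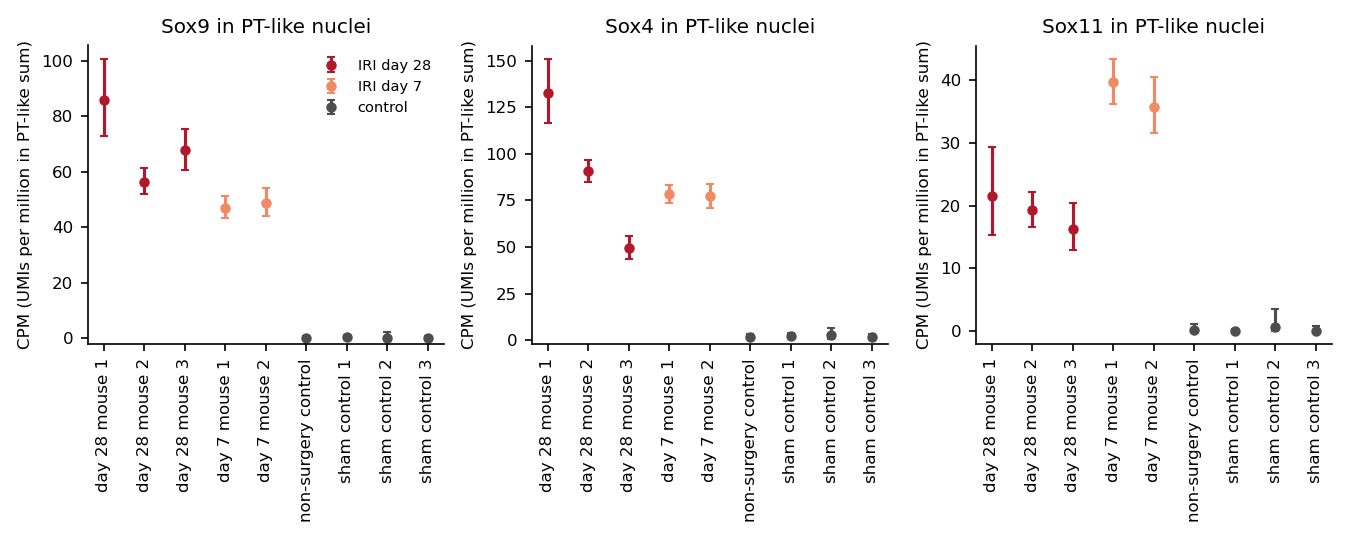
Level of Sox9, Sox4 and Sox11 in PT-like nuclei (CPM), with 1 point per library and bars for its 95% counting interval; day 28 (3 mice) and day 7 (2 mice) stand left of the controls (4 mice). For each gene the IRI points, from 16.3 CPM upward, lie above the control points, none of which exceeds 2.55 CPM.

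Across libraries, edgeR's quasi-likelihood test with Benjamini-Hochberg adjustment over 14211 genes called all 3 members higher on both days. On day 28 the log2 changes against control were 8.36 for Sox9 (SE 0.46, adjusted p = 1.9e-07), 5.15 for Sox4 (SE 0.36, adjusted p = 9.0e-07) and 6.95 for Sox11 (SE 0.54, adjusted p = 1.6e-06). On day 7 they were 7.86 for Sox9 (SE 0.48, adjusted p = 3.9e-07), 4.97 for Sox4 (SE 0.37, adjusted p = 1.4e-06) and 7.97 for Sox11 (SE 0.53, adjusted p = 5.6e-07). The same calls of higher expression fell on 24.0% of all genes tested on day 28 and on 26.1% on day 7, so 3 of 3 called members is a count to be read against a broad change; the median gene moved by 0.03 on day 28 and 0.01 on day 7 on the log2 scale. Both comparisons use the same 4 controls. With so few control UMIs, the fitted changes of Sox9 and Sox11 depend on the prior count of the fit and are no bound; without sham control 1, which held every control Sox9 UMI, the Sox9 fits gave 11.64 on day 28 and 11.05 on day 7. In bulk sums over a class, fewer expressing nuclei and less RNA per nucleus cannot be told apart, which is why detection per nucleus is given further on.

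Barcode set moved with injury. Within the v2 set, day 28 mouse 1 alone against the 4 controls gave log2 changes of 8.54 for Sox9, 5.66 for Sox4 and 6.93 for Sox11, with adjusted p = 7.6e-06, 2.1e-06 and 6.2e-04 from edgeR's fit, in which the lone library is assumed to vary like the others. No day 7 library had v2 barcodes; with the barcode set as a term in the fit the day 7 changes were 8.24, 5.78 and 8.16. Without day 28 mouse 1 the day 28 changes were 8.23, 4.83 and 6.92.

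Marker genes of other cell types in the same PT-like sums were measured beside these results. The summed level of 10 listed stroma markers was 40.1 to 74.6 CPM in IRI sums and 9.57 to 16.2 CPM in control sums, and it moved with the members. Of these 10, 0 to 2 were at 0 in an IRI sum (Pdgfrb and Acta2 in day 28 mouse 3) and 1 to 7 in a control sum, Col1a1 among them in 3 of 4 controls. Leukocyte markers (14 listed) summed to 65.6 to 130 CPM in IRI sums and 30.8 to 98.3 CPM in control sums, ranges that overlap. TAL markers summed to 35.3 to 90.4 CPM in IRI sums and 89.1 to 158 CPM in control sums, and distal markers to 49.2 to 127 CPM in IRI and 151 to 281 CPM in control sums. Endothelial markers summed to 23.2 to 56.8 CPM in IRI and 31.1 to 129 CPM in control sums, and urothelial markers to 1.37 to 3.86 CPM and 1.86 to 7.02 CPM. The part of these other cells in the result was not tested.

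Detection per nucleus gave the same picture in another unit. A Sox9 UMI was found in 12.1% of IRI and 0.0277% of control PT-like nuclei, a Sox4 UMI in 16.5% and 0.360%, and a Sox11 UMI in 6.29% and 0.0185%, at median depths of 2646 UMIs in IRI and 1702 UMIs in control nuclei. In leukocyte-like nuclei of the IRI libraries, a class with no known tie to tubule repair by these factors, the shares were 1.99%, 2.49% and 1.99% of 201 nuclei at a median of 917 UMIs. These nuclei were shallower, and their pooled levels were 13.1, 16.4 and 16.4 CPM, against 54.9, 80.5 and 29.0 CPM in IRI PT-like nuclei. For Sox11 the counting interval of the leukocyte-like level, 5.34 to 38.4 CPM from 5 UMIs, holds the PT-like level. After each nucleus was thinned to 1000 UMIs, which left out 6 to 479 shallower nuclei per IRI library and 169 to 1777 per control library, most of them in sham control 2, the mean share with Sox9 was 5.76% ± 1.12 in IRI libraries and 0.00654% ± 0.0131 in control libraries (SD, n = 5 and 4). The thinned share with Sox4 averaged 7.13% ± 2.41 in IRI and 0.419% ± 0.364 in control libraries, and with Sox11 2.18% ± 0.892 and 0.0115% ± 0.0229. In each case all 5 IRI libraries exceeded all 4 controls, and the two-sided exact permutation test over libraries gave p = 0.0159, the smallest value its 126 splits allow (0.0238 after adjustment over 6 comparisons).

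The second question was whether the 3 genes kept their level between day 7, when the injured tubule is being rebuilt, and day 28. Sox9 and Sox11 lay in opposite order. Sox9 averaged 70.1 ± 14.9 CPM on day 28 and 48.1 ± 1.27 CPM on day 7 (SD, n = 3 and 2), with no overlap between the mice. Sox11 averaged 19.0 ± 2.58 CPM on day 28 and 37.7 ± 2.71 CPM on day 7, again with no overlap. With 3 and 2 mice such separation is weak, since an exact permutation test over 10 splits cannot go below p = 0.2. The share of all genes without overlap between the days was not counted. Sox4 averaged 91.0 ± 41.7 CPM on day 28 and 77.8 ± 0.769 CPM on day 7, and its day 28 mice lay on both sides of the day 7 mice. None of the 3 passed edgeR's test across genes, in which 5.69% of genes were called in either direction. On simulated counts this comparison recovered 12% of 2-fold and 71% of 4-fold changes, so a missing call says little about a 2-fold change. The log2 difference of day 28 minus day 7 was 0.51 for Sox9 (SE 0.32, adjusted p = 0.384), 0.18 for Sox4 (SE 0.34, adjusted p = 0.794) and -1.02 for Sox11 (SE 0.34, adjusted p = 0.107). The interval of 2 SE around the Sox11 difference ran from -1.70 to -0.34, around Sox9 from -0.13 to 1.14 and around Sox4 from -0.50 to 0.86. For Sox9 and Sox4 the interval thus holds a fall, no change and a rise.

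The size of the Sox11 difference stayed between -1.14 and -0.87 over the 18 alternatives run, and its call changed in 2 of them. Within the 4 IRI libraries with v3 barcodes it was -1.01 (SE 0.19, adjusted p = 0.0161) and was called. In the same fit Sox9 was at 0.43 (adjusted p = 0.101) and Sox4 at -0.06 (adjusted p = 0.902). That fit called 1913 genes, against 809 in edgeR's fit on all libraries. DESeq2 on all libraries called Sox11 as well, at -0.98 (adjusted p = 0.0362), and it too called more genes than edgeR's fit on all libraries. Over all alternatives the adjusted p of Sox11 ranged from 0.0161 to 0.450.

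The third question concerned injury state within the injured proximal tubule. Havcr1 encodes KIM-1, a receptor for dying cells that tubule cells display soon after injury, and Vcam1 encodes an adhesion molecule carried by tubule cells that fail to recover. PT-like nuclei were split by a UMI of Havcr1, of Vcam1, of both or of neither. All 3 members were higher in nuclei with either marker than in nuclei with neither, and in each IRI mouse. Sox9 had 126, 71.5 and 79.7 CPM in nuclei with either marker of day 28 mice 1, 2 and 3 and 49.7 and 54.3 CPM in those of day 7 mice 1 and 2, against 51.2, 33.2, 38.0, 32.0 and 29.7 CPM in nuclei with neither of the same mice. Sox4 had 171, 102, 57.7, 80.1 and 84.4 CPM with either marker, against 100.4, 73.1, 28.7, 68.0 and 51.7 CPM with neither. Sox11 had 31.0, 24.5, 19.1, 44.5 and 42.6 CPM with either marker, against 13.3, 11.0, 9.32, 10.5 and 11.0 CPM with neither. Sox11 in nuclei with neither marker thus covered a narrow range over both days, while in nuclei with a marker all 3 day 28 mice lay below both day 7 mice. The values with neither marker rest on 13, 44, 13, 18 and 17 Sox11 UMIs in the same order of mice, so counting error is large there. Whether the difference between days depends on the marker state was not tested. The share of all genes ordered in this way was not counted.

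With the library as a block, edgeR's quasi-likelihood test called all 3 higher with a marker, as it did 14.2% of genes: the log2 differences were 1.01 for Sox9 (SE 0.11, adjusted p = 5.2e-06), 0.60 for Sox4 (SE 0.10, adjusted p = 4.3e-04) and 1.53 for Sox11 (SE 0.16, adjusted p = 5.2e-06). Nuclei with a marker were deeper, with for example a median of 4778 UMIs for both markers and 1529 UMIs for neither in day 7 mouse 1, and a deep nucleus is more likely to show a marker UMI. When nuclei were thinned to 1000 UMIs first, the differences were 0.69 for Sox9, 0.50 for Sox4 and 0.82 for Sox11, each still called. Without the library block, Sox9 at 1.06 (adjusted p = 0.0562) and Sox4 at 0.62 (adjusted p = 0.456) were no longer called.

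The order among the marker states differed by gene. Nuclei with both markers had the highest Sox9 level in all 5 IRI mice, at 154, 90.6 and 92.8 CPM on day 28 and 58.3 and 69.8 CPM on day 7. They also had the highest Sox11 level in 4 of 5 mice, at 45.9, 28.7 and 27.3 CPM on day 28 and 55.9 and 63.7 CPM on day 7; the exception was day 28 mouse 2, where nuclei with Havcr1 alone had 29.3 CPM. Sox4 showed no single order, with its highest level in Vcam1-only nuclei of day 28 mouse 3 (62.4 CPM) and day 7 mouse 2 (102 CPM) and in Havcr1-only nuclei of day 7 mouse 1 (85.0 CPM). Between nuclei with Havcr1 alone and nuclei with Vcam1 alone, 3.58% of genes were called in either direction and no member was. The log2 difference of Havcr1-only minus Vcam1-only nuclei was 0.005 for Sox9 (2-SE interval -0.28 to 0.28), 0.003 for Sox4 (-0.26 to 0.27) and 0.46 for Sox11 (0.01 to 0.91, adjusted p = 0.376).

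**Figure D2:**
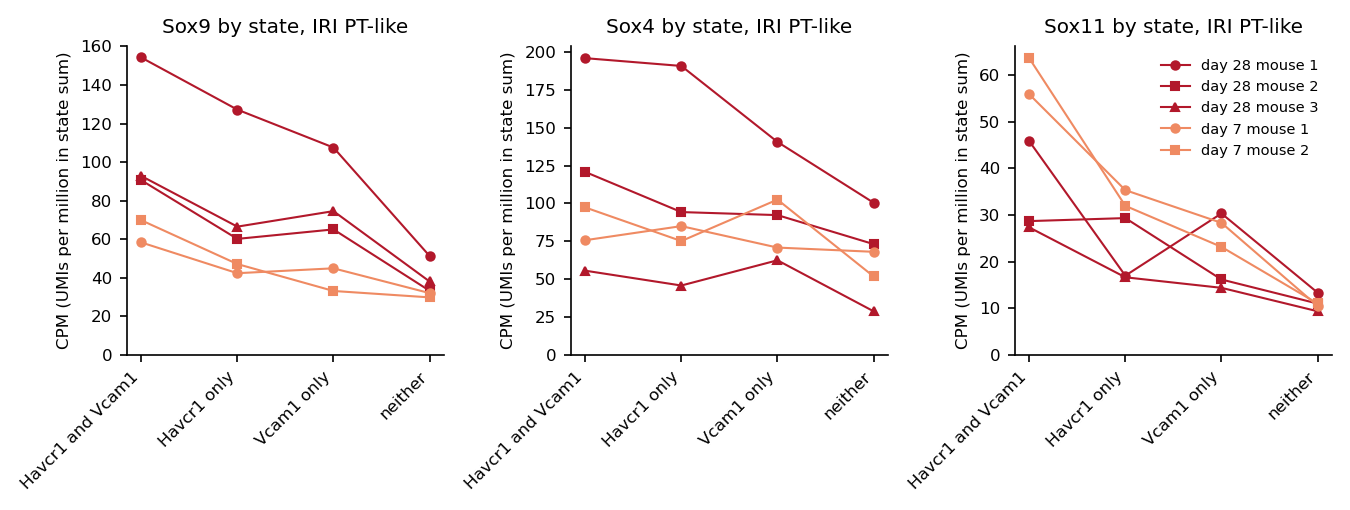
Level of each gene in PT-like nuclei of the 5 IRI libraries, split by a UMI of Havcr1 and Vcam1, Havcr1 alone, Vcam1 alone or neither, with 1 line per library. Every line ends lower at neither than at both markers; for Sox11 in the day 7 mice, 55.9 and 63.7 CPM with both stand against 10.5 and 11.0 CPM with neither.

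Comparing only nuclei with either marker, day 28 against day 7 gave log2 differences of 0.88 for Sox9 (SE 0.27, adjusted p = 0.117), 0.46 for Sox4 (SE 0.40, adjusted p = 0.547) and -0.77 for Sox11 (SE 0.25, adjusted p = 0.135), none of them called, beside 4.56% of all genes called in either direction. On simulated counts this comparison recovered 11% of 2-fold and 69% of 4-fold changes. Within the 4 libraries with v3 barcodes, which leaves out day 28 mouse 1, Sox9 at 0.63 (adjusted p = 0.0234) and Sox11 at -0.89 (adjusted p = 0.0196) were called. That fit called 2017 genes, against 618 when day 28 mouse 1 was kept.

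Cycling nuclei, defined by UMIs of at least 2 of 7 cell cycle genes, numbered 361 among IRI PT-like nuclei, and 336 of them came from the day 7 mice. Sox11 had 70.3 and 63.2 CPM in cycling nuclei of day 7 mice 1 and 2, and 37.1 and 33.6 CPM in their other PT-like nuclei. Sox9 had 50.2 and 68.9 CPM in cycling nuclei of the same mice and 46.9 and 47.4 CPM in the others, and Sox4 72.5 and 40.2 CPM in cycling nuclei against 78.8 and 80.2 CPM in the others. The day 28 mice held 5, 8 and 12 cycling nuclei, in which Sox11 was at 0, 108 and 14.6 CPM, against 21.6, 18.8 and 16.4 CPM in their other nuclei, so they did not run one way. Cycling against other nuclei was not tested.

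Levels also varied between the clusters that make up the PT-like class, given here as a description because the clusters were drawn from the same nuclei. Sox9 was highest in cluster 12, at 120 CPM over 997 IRI nuclei, 983 of them from day 28, with 49.0 and 121 CPM in the 2 libraries that gave it at least 30 nuclei; the genes that led this cluster included Vcam1 and the chemokine gene Ccl2. Clusters 5 and 14, led by genes such as Vcam1, Havcr1 and Dock10, had 92.2 and 85.0 CPM of Sox9. Sox4 was highest in cluster 35, a small group of 205 IRI nuclei, 198 of them from day 7, at 349 CPM, with 325 and 413 CPM in the 2 libraries that gave it at least 30 nuclei. Sox11 was highest in cluster 28, at 72.5 CPM over 285 nuclei led by the proliferation genes Top2a and Mki67, and in cluster 35, at 67.0 CPM. Clusters 23 and 37, made up of IRI nuclei only, scored 1.70 and 1.43 for proximal tubule and -0.939 and -0.955 for injured markers (log2). The genes that led them included the transporter genes Slco1a1 (cluster 23) and Slc5a2 (cluster 37). There Sox9 had 5.85 and 7.27 CPM, Sox4 4.55 and 18.2 CPM, and Sox11 no UMI in 440 and 164 nuclei. Clusters 4, 10, 17 and 19, mostly control nuclei, had lower injured scores (-2.86, -2.76, -1.97 and -2.16). Their IRI nuclei had 18.9, 16.0, 18.4 and 4.04 CPM of Sox9, from 1 or 2 UMIs each, and no Sox11 UMI. Sox4 was at 0, 16.0, 9.22 and 4.04 CPM in them.

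**Figure D3:**
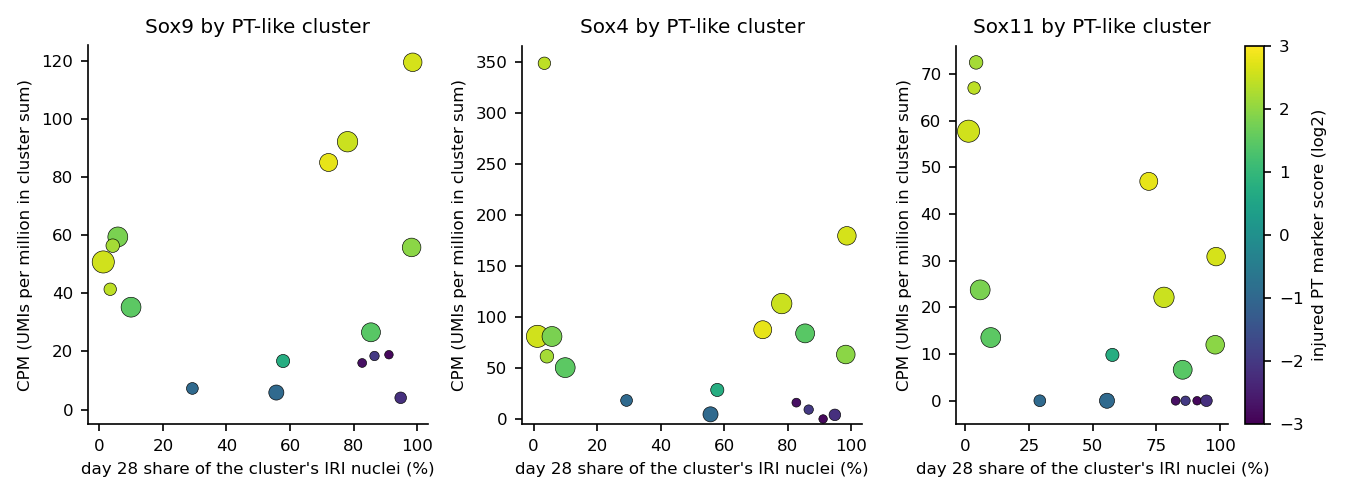
Level of each gene (CPM) in IRI nuclei of the PT-like clusters against the share of those nuclei that came from day 28 (%); each point is 1 cluster, its size grows with the number of nuclei and its colour gives the score of injured proximal tubule markers (log2). Clusters with a low injury score lie near the bottom for all 3 genes; the top Sox9 cluster (120 CPM) lies at the day 28 end and the top Sox4 (349 CPM) and Sox11 (72.5 CPM) clusters at the day 7 end.

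The fourth question was whether the members rise outside the proximal tubule. In TAL-like nuclei, the salt-reabsorbing segment marked by Slc12a1, Sox9 had 5.79, 29.9 and 16.9 CPM in day 28 mice 1, 2 and 3 and 28.6 and 39.9 CPM in day 7 mice 1 and 2, against 3.73, 0, 0 and 0 CPM in the non-surgery control and sham controls 1, 2 and 3. Sox4 had 69.5, 49.8 and 59.2 CPM on day 28 and 109 and 84.8 CPM on day 7, against 7.46, 6.15, 39.0 and 4.99 CPM in the controls. Sox11 had 0, 7.97 and 11.3 CPM on day 28 and 20.6 and 13.3 CPM on day 7, and no UMI in 864 control nuclei, which allows a share of up to 0.347% of nuclei with a UMI and sets no limit on nuclei that express the gene. Neither Sox9 nor Sox4 overlapped between IRI and control libraries, while Sox11 was at 0 in day 28 mouse 1 too. The share of all genes without such overlap was not counted. In nuclei thinned to 1000 UMIs, the share with Sox9 did overlap: it averaged 1.97% ± 1.30 in IRI libraries, with 0% in day 28 mouse 3, and 0.162% ± 0.324 in control libraries, with 0.647% in the non-surgery control (SD, n = 5 and 4; two-sided exact permutation p = 0.0794, 0.0952 after adjustment over 6 comparisons). The thinned share with Sox4 averaged 6.74% ± 2.57 in IRI and 1.28% ± 0.711 in control libraries, without overlap (exact permutation p = 0.0159, adjusted 0.0238). Counts were small, with 71 UMIs of Sox9, 204 of Sox4 and 34 of Sox11 in 797 IRI nuclei.

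Of the members that passed the filter on low counts, edgeR called Sox9 (log2 change 3.35, SE 0.75, adjusted p = 0.00236) and Sox4 (2.65, SE 0.43, adjusted p = 1.4e-04) higher in TAL-like sums of IRI mice, beside 11.9% of the 7676 genes tested. Pooled ratios of IRI to control were 13.8 for Sox9 (4.53 to 68.4) and 8.48 for Sox4 (4.94 to 15.8), and for Sox11, with no control UMI, the lower 95% counting limit of the ratio was 5.08, against 6.60 when the controls are set at 3 UMIs in all and counting error of the IRI UMIs is left out. With the barcode set as a term, neither call held: Sox9 was at 1.49 (adjusted p = 0.83) and Sox4 at 2.99 (adjusted p = 0.0789). Of these, 67, 180 and 32 UMIs came from 1 TAL-like cluster of 458 nuclei, 457 of them IRI, which also scored for injured proximal tubule markers (1.70 on the log2 scale). There Sox9, Sox4 and Sox11 had 34.4, 92.5 and 16.4 CPM, against 7.15, 42.9 and 3.58 CPM in the 340 IRI nuclei of the other TAL-like clusters.

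The rise was larger in proximal tubule than in thick ascending limb for Sox4. Tested as an interaction, the IRI effect in PT-like minus that in TAL-like sums was 2.17 on the log2 scale for Sox4 (SE 0.57, adjusted p = 0.00770), 4.27 for Sox9 (SE 1.46, adjusted p = 0.0578) and -1.37 for Sox11 (SE 2.93, adjusted p = 0.870), and 4.48% of genes were called higher. The Sox11 value rests on 2 UMIs in the PT-like and none in the TAL-like sums of the controls. On simulated counts the interaction test recovered 0% of 2-fold and 39% of 4-fold changes. The Sox4 call was lost without the non-surgery control (2.27, adjusted p = 0.0565) and without sham control 2 (1.70, adjusted p = 0.126), whose 5 Sox4 UMIs in TAL-like nuclei made up its 39.0 CPM. Without the non-surgery control, the one with Sox9 UMIs in this class, the Sox9 difference turned to -1.55. The IRI levels themselves were alike for Sox4, at 80.5 CPM in PT-like and 81.4 CPM in TAL-like nuclei pooled, while the control levels were 2.05 and 9.60 CPM.

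Among the named classes of the IRI libraries, Sox9 had its highest pooled level in PT-like nuclei, at 54.9 CPM (counting interval 52.5 to 57.4). Podocyte-like (35.4 CPM, 11.5 to 82.6, from 5 UMIs) and urothelium-like nuclei (27.1 CPM, 3.28 to 97.9, from 2 UMIs) had intervals that hold the PT-like level, and so did the unnamed nuclei (44.7 CPM, 32.5 to 60.0). The intervals of endothelium-like (30.5 CPM), stroma-like (30.2), TAL-like (28.3), intercalated-like (27.2) and distal-like (26.5) nuclei overlapped one another and lay below that of PT-like nuclei. Leukocyte-like nuclei had 13.1 CPM and thin limb-like nuclei 10.8 CPM of Sox9, from 4 and 3 UMIs. Sox4 had its top levels in TAL-like (81.4 CPM), PT-like (80.5 CPM) and intercalated-like nuclei (76.8 CPM), which did not differ beyond counting error, and its lowest in leukocyte-like nuclei (16.4 CPM). The Sox4 intervals of urothelium-like (67.8 CPM, 22.0 to 158), podocyte-like (63.7 CPM, 29.1 to 121) and thin limb-like nuclei (54.2 CPM, 30.3 to 89.4) also held the PT-like level. The unnamed nuclei (81.2 CPM, 64.4 to 101) did so too. Sox11 had 32.5 CPM in thin limb-like, 32.5 CPM in endothelium-like and 29.0 CPM in PT-like nuclei, with overlapping intervals, and 13.6 CPM in TAL-like nuclei. All 33 endothelium-like Sox11 UMIs came from the day 7 mice; the day 28 mice had none in 172 nuclei, whereas PT-like nuclei carried Sox11 on both days. The endothelium-like level came from 1 of 2 clusters: cluster 25, which also scored for injured proximal tubule markers, had 38.7 CPM of Sox9 and 41.2 CPM of Sox11 in 192 nuclei, and cluster 32 had 4.17 CPM of each in 229 nuclei.

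Controls were not empty everywhere. Thin limb-like nuclei of the controls had 30.2 CPM of Sox11, from 12 UMIs in 9 of 326 nuclei, in contrast with 2 UMIs in 10826 control PT-like nuclei. These came from the non-surgery control (8 UMIs in 6 of 198 nuclei) and sham control 2 (4 UMIs in 3 of 48), and sham controls 1 and 3 had none in 55 and 25 nuclei. Control intercalated-like nuclei had 38.1 CPM of Sox4, from 9 UMIs in 119 nuclei.

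**Figure D4:**
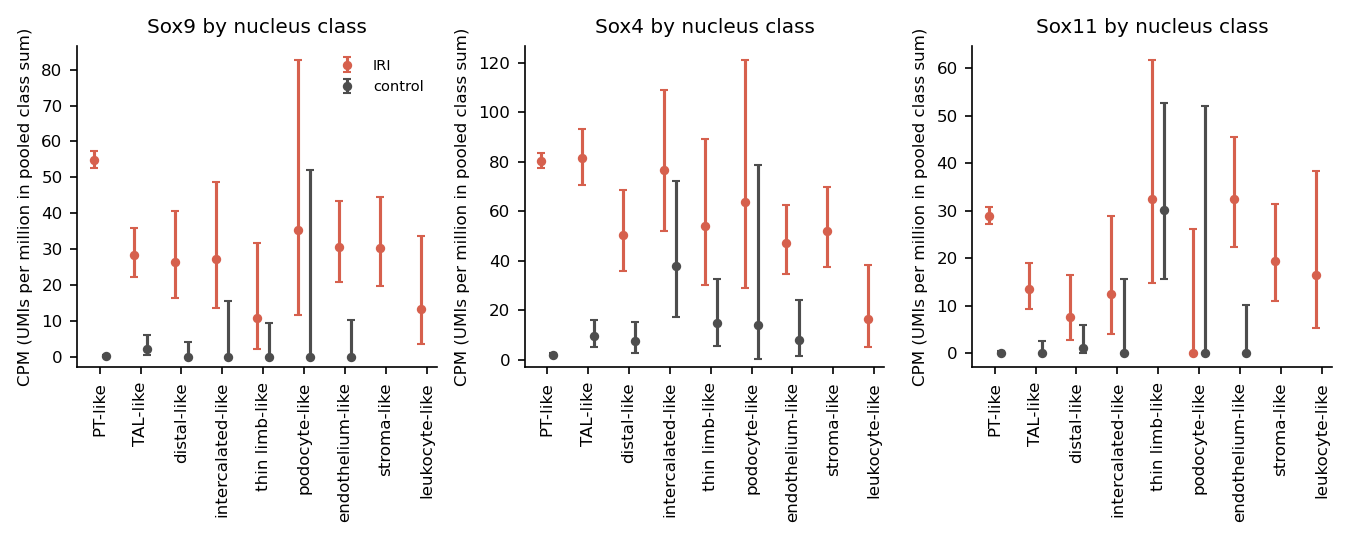
Pooled level of each gene (CPM) by nucleus class, with IRI left of control in each class and bars for the 95% counting interval. Stroma-like and leukocyte-like nuclei of the controls were too few to be drawn; Sox9 has its highest pooled level in PT-like nuclei of IRI mice, with a wide podocyte-like interval around it, and the one Sox11 control level that stands out is that of thin limb-like nuclei, at 30.2 CPM.

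The last question was whether the 3 genes were found in the same nuclei. At least 1 member was detected in 22.3%, 30.2% and 36.0% of PT-like nuclei of day 28 mice 1, 2 and 3 and in 34.9% and 24.2% of those of day 7 mice 1 and 2, against 0.239% to 0.556% in the controls. All 3 together were found in 0, 9 and 3 nuclei of the day 28 mice and in 28 and 7 nuclei of the day 7 mice, exactly 2 of them in 41, 150, 49, 204 and 102 nuclei, and no control nucleus had 2. Because deep nuclei show every gene more often, odds ratios were computed within 10 strata of depth in each library.

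Pairs of members were found together somewhat more often than nuclei of like depth would give, with 1 exception. The odds ratio of Sox9 with Sox11 was 1.57, 1.61 and 1.21 in the day 28 mice and 1.53 and 1.75 in the day 7 mice, above 1 in 5 of 5 libraries. Sox9 with Sox4 had odds ratios of 2.15, 1.43 and 0.873 on day 28 and 1.33 and 1.33 on day 7, and Sox4 with Sox11 1.5, 1.68 and 1.16 on day 28 and 1.14 and 1.39 on day 7. When nuclei were thinned to 1000 UMIs, the median over libraries was 1.56 for Sox9 with Sox4, 1.12 for Sox9 with Sox11 and 1.11 for Sox4 with Sox11, and such weak associations in sparse counts are no finding.

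Sox11 was more often found with Cd44, a hyaluronan receptor of injured and migrating cells, than with Sox9 or Sox4 in each IRI library. The odds ratio of Sox11 with Cd44 was 2.12, 2.24 and 3.08 in the day 28 mice and 4.00 and 5.02 in the day 7 mice; for Sox9 with Cd44 it was 2.35, 2.14, 1.91, 2.12 and 1.89 in the same libraries, and for Sox4 with Cd44 1.57, 1.54, 1.45, 1.51 and 1.46. Sox11 with Havcr1 had 2.19, 2.32, 2.51, 3.49 and 3.17, Sox9 with Havcr1 2.83, 2.04, 1.56, 1.54 and 2.20, and Sox4 with Havcr1 1.72, 1.45, 1.00, 1.46 and 1.46. With Krt20, whose promoter drives the recombinase of the IRI line, Sox9 had 2.57, 2.54, 1.39, 1.88 and 1.60, and Sox4 ranged from 0.900 to 1.35. Detection together with Slc34a1, the phosphate transporter of the mature proximal tubule, was below the depth expectation for all 3 genes in all 5 libraries, from 0.106 to 0.652 for Sox11, 0.346 to 0.920 for Sox9 and 0.402 to 0.726 for Sox4. These are descriptions of nuclei that share a library, and no test was made over them.

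**Figure D5:**
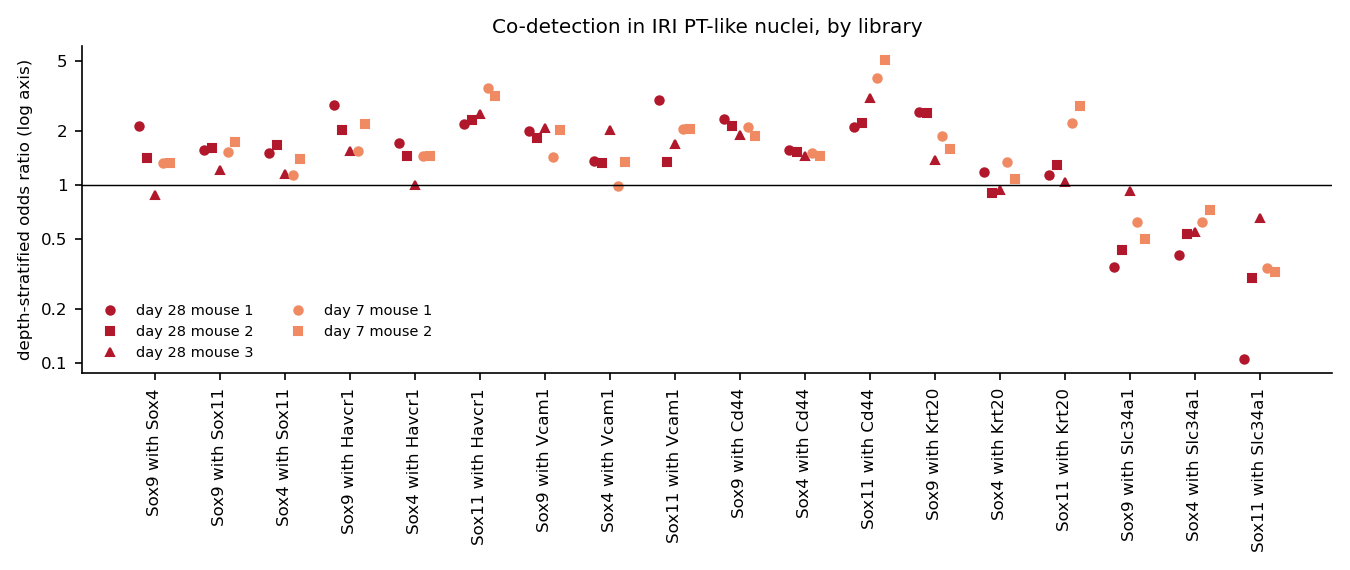
Depth-stratified odds ratios of finding 2 genes in the same PT-like nucleus, on a log axis with 1 point per IRI library (day 28 and day 7). Pairs of members lie between 0.873 and 2.15, pairs with Cd44 between 1.45 and 5.02, and pairs with Slc34a1 below 1.

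Genes whose level over 24 PT-like sums (4 marker states in each of 5 IRI libraries and 1 sum per control) was most like a member were named by the highest Pearson r, as a description over sums that share libraries. For Sox9 they were the kinase gene Frk (r = 0.98), Anxa2 (0.98), the actin crosslinker Flna (0.98), the chloride channel gene Cftr (0.97) and Tes (0.97). For Sox4 they were Mdfic (0.97), Actn1 (0.97), Msn (0.97), Mthfd2l (0.96) and Lpp (0.95). For Sox11 they were Gc, which encodes the vitamin D-binding protein (0.94), Ptpn12 (0.94), Pak3 (0.94), Fam49b (0.93) and Cd44 (0.93). Between members, r was 0.93 for Sox9 with Sox4, 0.82 for Sox9 with Sox11 and 0.82 for Sox4 with Sox11. Over the 20 IRI sums alone these fell to 0.63, 0.42 and 0.43. The named genes there had r of 0.87 to 0.92 with Sox9, 0.73 to 0.89 with Sox4 and 0.81 to 0.88 with Sox11. They were chosen for high r over sums that include these 20, so their values cannot be set against those between members.

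A further 5 lists give the surroundings of the members in PT-like sums, called against control by the same edgeR test. Of 16 other Sox family genes, 5 passed the filter on low counts; 2 were higher and 1 lower on day 28, and 2 higher and 0 lower on day 7, with median log2 changes of 0.23 and 0.18. Genes called lower made up 21.3% of those tested on day 28 and 24.8% on day 7. Sox8, the SoxE relative of Sox9, had 12, 42 and 35 UMIs in day 28 mice 1, 2 and 3, which is 6.61, 4.10 and 7.15 CPM, 4 and 2 UMIs (0.332 and 0.281 CPM) in the day 7 mice, and none in any control. Its day 28 minus day 7 difference was 4.11 (SE 0.76, adjusted p = 0.0139), a difference between days that no member showed in the same test. Sox5 rose on day 28 (1.17, adjusted p = 0.00400) and on day 7 (1.72, adjusted p = 4.3e-04), and Sox12, the remaining SoxC gene, fell on day 28 by 2.34 on the log2 scale (adjusted p = 7.2e-04).

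Of 16 genes known as SOX9 targets in cartilage, 4 were tested. Ctgf rose by 4.47 on day 28 and 3.87 on day 7, while the collagen gene Col27a1 changed by -2.30 and -2.41 and the growth factor receptor gene Fgfr3 by -2.32 and -2.24; Col9a3 did not pass, and the medians were -0.38 and -1.04. Of 8 genes tied to SOX4 and SOX11 in neurons, mesenchyme or epithelium, 4 were tested. Tead2 (4.36 and 4.13) and Map2 (1.53 and 1.40) rose on both days, Stmn1 fell on both (-0.85 and -1.19), Ezh2 passed on day 7 (0.71) but not on day 28 (-0.02), and the medians were 0.76 and 1.05.

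Of 17 nephron development genes, 12 were tested; 6 rose and 2 fell on day 28, and 5 rose and 2 fell on day 7, with medians of 0.72 and 0.89. The cadherin gene Cdh6 (5.99 and 6.04), Wt1 (5.63 and 4.38), the Notch ligand gene Jag1 (3.8 and 4.87) and Pax2 (1.41 and 1.93) rose on both days, and Bmp7 (-1.30 and -1.79) and Dll1 (-1.09 and -1.94) fell. In TAL-like sums 5 of 8 tested rose and 1 fell, beside 11.9% of all genes called higher and 18.0% called lower. In PT-like nuclei with a marker 4 of 11 were higher and 5 lower than in nuclei with neither, beside 14.2% of all genes in each direction. All 12 injured tubule genes were tested, and 9 rose on day 28 and 10 on day 7 with none lower, beside 24.0% and 26.1% of all genes called higher, at medians of 4.20 and 4.10. Cdh6 is on both of these lists. Havcr1, Vcam1, Krt20, Cp, Dock10 and Cdh6 are also among the injured proximal tubule markers used to name clusters of this class. Their rise was therefore partly set by the naming, and the sort of the IRI line also depends on Krt20. For these genes the calls are a description and no independent result. Cd44 changed by 7.72 and 8.99 and Havcr1 by 5.59 and 7.38, and both were lower on day 28 than on day 7 (Cd44 -1.27, adjusted p = 0.0269; Havcr1 -1.79, adjusted p = 0.0134), the side on which the uncalled Sox11 difference lay.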

How the data were processed

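Polyadenylated RNA of GFP-sorted nuclei was sequenced with a droplet 3′ kit. The authors deposited 2 tables of UMI counts per gene and nucleus, 1 for IRI and 1 for control libraries; Cell Ranger, STAR and Seurat and the mm10 build are named per the submitters' processing notes, with versions not given in the sources used here. Each gene of a table had UMIs in at least 3 of its nuclei, and no filter on nuclei was added. No doublet caller was run. Library totals were 2409411, 11668625 and 6091046 UMIs for day 28 mice 1, 2 and 3, 14641038 and 8718254 for day 7 mice 1 and 2, 7029488 for the non-surgery control, and 9622439, 1833617 and 4982300 for sham controls 1, 2 and 3.

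Nuclei were clustered without the 3 members (Python 3.11.15, scikit-learn 1.9.0, igraph 0.11.9; 2000 variable genes, 30 principal components, 20 neighbours, Leiden resolution 2), which gave 42 clusters. A cluster took the name of its best-scoring class where at least 3 of its markers were raised and their mean log2 score was at least 0.5. A separate list of injured proximal tubule markers also gave the PT-like name. A cluster stayed unnamed where another class scored 1.5 or more, or 0.5 or more with a lead under 1. In all, 503 nuclei stayed unnamed. Counts were summed per library and class over genes in both tables and tested with edgeR 4.0.16 (quasi-likelihood test after TMM scaling and filterByExpr, R 4.3.3), with Benjamini-Hochberg adjustment over all genes and calls at 0.05. All 9 libraries entered 1 fit for the class comparisons; comparisons of states used the 5 IRI libraries with the library as a block. DESeq2 1.42.0 was an alternative, and the steps were tested on simulated data. Each library is 1 mouse, so p-values for groups of mice measure the spread between mice. Marker states, and PT-like minus TAL-like effects, were compared with the library as a block. Their p-values measure how far the differences within a library varied between mice. Single shares used exact permutation tests over libraries. Counting intervals are exact at 95%, and a count of 0 was read as up to 3 counts.

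The members, gene lists and tests were chosen with earlier results of these data known. Named beside the members were, for each, the 5 genes with the highest Pearson r of log2(CPM + 10) over PT-like sums of at least 30 nuclei, and of each list up to 4 called genes with the largest change; Sox12, Gm26735 and uncalled list genes given with values were added after their values were seen. Gene positions come from GENCODE, in which 98.5% of 19858 symbols were found. RefSeq windows were found for 2 of 3 members, Sox4 and Sox11, and not for Sox9. Genome coordinates are on mm10, which is GRCm38.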

Additional observations from a re-analysis of the deposited data

Results flagged for a closer look

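Among the 4 controls, Sox9 in PT-like nuclei was at 0 in 3 libraries and at 0.348 CPM in sham control 1, which therefore lay far from the others. In TAL-like nuclei, Sox9 was at 3.73 CPM in the non-surgery control and at 0 in the 3 sham controls. Sox4 in TAL-like nuclei was at 39.0 CPM in sham control 2, the shallowest library, and between 4.99 and 7.46 CPM in the other controls. For continuous values, chance alone sets a sample apart in this way in about 1 of 20 groups. That rate does not hold for Sox9, because any UMI in 1 library meets the rule when the other 3 are at 0. Each of these values rests on 5 or fewer UMIs.

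The effect of IRI on Sox4 differed between PT-like and TAL-like nuclei, by 2.17 on the log2 scale in edgeR's interaction test (adjusted p = 0.00770), with the limits given beside that result.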

How the results depend on the processing

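The rise of all 3 members in PT-like nuclei against control kept its direction and its call under every alternative run. Without 1 library at a time, the day 28 log2 changes ranged from 8.0 to 11.64 for Sox9, 4.83 to 5.45 for Sox4 and 6.32 to 7.72 for Sox11, with 4634 to 7549 genes called. The day 7 changes ranged from 7.41 to 11.05, 4.80 to 5.17 and 7.25 to 8.65, with 4579 to 8194 genes called, the fewest without day 7 mouse 1. A term for barcode set left 3082 genes called on day 28, against 6434, and 1933 on day 7, against 7233; within v2 barcodes, 1965 were called on day 28.

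For day 28 against day 7, leaving out 1 library gave 0.37 to 0.62 for Sox9, -0.13 (without day 28 mouse 1) to 0.48 for Sox4 and -1.14 to -0.89 for Sox11, with 152 (without day 7 mouse 2) to 955 genes called, against 809, and 330 without day 7 mouse 1. Sox4 was at -0.13 with the barcode set as a term and -0.065 within v3 barcodes. Sox11 was called within v3 barcodes (-1.01) and by DESeq2 (-0.98), with 1913 and 1384 genes called. In nuclei with a marker, Sox9 and Sox11 were called with the barcode set as a term (0.63 and -0.89, 1993 genes) and within v3 barcodes (0.63 and -0.89, 2017 genes), and DESeq2 called 1178 genes, against 618. Leaving out 1 library there gave 0.63 to 1.03 for Sox9, 0.07 to 0.79 for Sox4 and -0.89 to -0.59 for Sox11, with 0 genes called by edgeR without day 7 mouse 2, 78 without day 7 mouse 1, 112 without day 28 mouse 2, 238 without day 28 mouse 3 and 2017 without day 28 mouse 1.

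In TAL-like nuclei, the barcode set as a term gave 1.49 for Sox9, 2.99 for Sox4 and 36 genes, against 2294. Leaving out 1 library gave 3.05 to 6.34 for Sox9, 2.30 to 3.21 for Sox4 and 1747 to 2810 genes. For PT-like minus TAL-like effects, Sox9 was called by DESeq2 (4.79), without the filter (4.26) and with the barcode set as a term (6.78), and ranged from -1.55 (without the non-surgery control) to 6.71 (without sham control 1) when 1 library was left out. Sox4 was not called in nuclei of 1000 or more UMIs (1.60) and ranged from 1.70 to 2.55. Sox11 was at 3.54 by DESeq2 and ranged from -1.63 to -1.01. DESeq2 called 650 genes and a fit with that term 209, against 1015, and leaving out 1 library gave 586 to 941.

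For nuclei with a marker against neither, Sox9 (1.06) and Sox4 (0.62) lost their calls without the library block, with 551 genes called, and thinning to 1000 UMIs gave 1745, against 3270. Leaving out 1 library gave 0.95 to 1.10, 0.53 to 0.70 and 1.37 to 1.68 for Sox9, Sox4 and Sox11, and 2518 to 2906 genes. Between Havcr1-only and Vcam1-only nuclei, differences near 0 changed sign. Sox9 was at -0.017 in nuclei of 1000 or more UMIs, -0.072 without the library block, -0.26 after thinning and -0.14 with states from 2 UMIs. Sox4 was at -0.000073 with RLE scaling, -0.014 by DESeq2, -0.023 in nuclei of 1000 or more UMIs and -0.13 after thinning. Leaving out 1 library gave -0.053 to 0.066 for Sox9, -0.072 to 0.088 for Sox4 and 0.18 to 0.58 for Sox11, with 163 to 287 genes called. Genes called numbered 132 by DESeq2, 2 without the library block and 98 after thinning, against 333.

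The thinned share with Sox4 on day 28 minus day 7 was 0.266 percentage points, -0.829 unthinned and -1.41 (without day 28 mouse 1) to 1.97 with 1 library left out. The other shares kept their sign. Those of IRI minus control ranged from 5.41 to 6.02 points for Sox9, 5.84 to 7.54 for Sox4 and 1.84 to 2.35 for Sox11, and those of day 28 minus day 7 from 0.866 to 1.97 for Sox9 and -1.93 to -1.09 for Sox11. The median odds ratio without depth strata and after thinning was 1.83 and 1.12 for Sox9 with Sox11 and 1.67 and 1.11 for Sox4 with Sox11; it ranged from 1.33 to 1.38 for Sox9 with Sox4, 1.55 to 1.59 for Sox9 with Sox11 and 1.27 to 1.45 for Sox4 with Sox11 with 1 library left out.

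Replicate numbers did not pair the samples: same-numbered libraries had correlations of -0.22 to 0.02. A replicate block changed no call of a member; genes called were 380 for day 28 against day 7 and 1105 in nuclei with a marker. No value came from 3 settings: Sox9 in TAL-like nuclei without day 28 mouse 2, Sox11 between marker states after thinning, and Sox11 for PT-like minus TAL-like effects with the barcode set as a term. The cause of these changes was not tested. Depth limits Sox11 outside PT-like nuclei, where a class held few UMIs, and no control comparison separates injury from reporter line.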

Other observations

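The ratio of Sox11 to Sox9 UMIs in PT-like nuclei does not depend on how a library is scaled. It was chosen after the levels of both genes were seen. It was 0.250, 0.340 and 0.241 in day 28 mice 1, 2 and 3 and 0.840 and 0.731 in day 7 mice 1 and 2. The days could not overlap, because Sox9 was higher and Sox11 lower in each day 28 mouse than in each day 7 mouse. The separation and its p-value were therefore set beforehand and are no independent result. The share of other gene pairs with such a separation was not counted. The means were 0.277 ± 0.0549 on day 28 and 0.785 ± 0.0772 on day 7 (SD, n = 3 and 2), and the two-sided exact permutation test gave p = 0.2, the smallest its 10 splits allow (0.3 after adjustment over 3 ratios). Sox4 per Sox9 averaged 1.29 on day 28 and 1.62 on day 7 (exact permutation p = 0.4), and Sox11 per Sox4 0.235 and 0.484 (exact permutation p = 0.2).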
